A study of Mus musculus with 2 samples.

Results

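Fibroblasts that led with *Tnmd*, *Masp1*, *Slit2* and *C1qtnf3* transcripts were taken out of single-cell RNA sequencing data of mouse skin and compared between a wildtype and an Eppk1 knockout animal. A cell was counted as a fibroblast here when *Col1a1*, *Col1a2*, *Col3a1* and *Dcn*, which encode the chains of collagens I and III and the proteoglycan decorin, made up at least 2% of its unique molecular identifiers (UMIs). It belonged to the Tnmd group when *Tnmd*, *Masp1*, *Slit2* and *C1qtnf3* together had at least 3 UMIs and more than each of 3 rival sums: *Pla1a*, *Efhd1*, *Ptx3* and *Anxa3* (Pla1a group), *Cpz*, *Pla2g5*, *Fgfr4* and *Clec11a* (Cpz group), and *Angpt4*, *Myoc*, *C7* and *Adamtsl2* (Angpt4 group). Of 17492 cells kept by the filters, 4270 passed the collagen gate and 703 were Tnmd-group cells, 254 of them wildtype and 449 Eppk1 knockout.

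The wildtype library came from 1 C57BL/6J mouse and the Eppk1 knockout library from 1 *Eppk1*-/- mouse backcrossed into C57BL/6J, both untreated, and age and sex are not given in the sources used here. Dorsal skin was dissociated with enzymes, fixed and hybridised with pairs of gene-specific probes, whose ligated products were counted by UMIs. After filtering, 8875 wildtype and 8617 knockout cells remained, with median depths of 4963 and 5006 UMIs. With 1 library per genotype no difference between genotypes could be tested. All intervals below are 95% intervals that cover counting error only, and animal, dissociation and genotype cannot be told apart.

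The gene lost in the knockout, *Eppk1*, encodes epiplakin, a large plakin that binds keratin filaments in epithelia. Skin fibroblasts lay down and remodel the collagenous matrix of the dermis, and they differ with depth, with distance to hair follicles and with the fascia below. *Tnmd* encodes tenomodulin, a membrane glycoprotein best known from tendons and ligaments. *Masp1* encodes a serine protease of the lectin pathway of complement. *Slit2* encodes a secreted ligand of Robo receptors that steers growing axons and migrating cells. *C1qtnf3* encodes a secreted member of the C1q and TNF related family. On mm10 with GENCODE annotation, *Tnmd* lies at chrX:133850980-133865577 (plus strand), *Masp1* at chr16:23449417-23520815 (minus strand), *Slit2* at chr5:47983138-48307733 (plus strand) and *C1qtnf3* at chr15:10952332-10980150 (plus strand). *Eppk1* itself lies on the same chromosome as *C1qtnf3*, far from it, at chr15:76101481-76120195 (minus strand).

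*Eppk1* was read first, since it checks the labels. Summed over Tnmd-group cells it stood at 219 CPM (UMI counts scaled to a library total of 1000000; 196 to 245) in the wildtype and 31.8 CPM (25.02 to 39.7) in the knockout. The knockout level was lower by 2.78 on the log2 scale (-3.17 to -2.42), and the labels and this gene went the same way. In keratin-rich cells, defined as cells with at least 2% of UMIs from *Krt5*, *Krt14*, *Krt15*, *Krt1* and *Krt10* that failed the collagen gate, *Eppk1* stood at 4193 and 1064 CPM. Where its probes lie relative to the deleted part is not given in the sources used here.

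The cells behaved as fibroblasts by markers outside the rule. The general fibroblast list (*Pdgfra*, *Pdgfrb*, *Lum*, *Fbln1*, *Fbln2*, *Mmp2*, *Col5a1*, *Col6a1*, *Loxl1* and *Dpt*) summed to 14446 CPM in wildtype and 17774 CPM in knockout members, against 14185 and 18592 CPM in the other 3 groups pooled and 122 and 183 CPM in keratin-rich cells. *Dpt*, the matrix protein dermatopontin, was its most abundant gene at 3978 and 5630 CPM. Tendon markers were read because of *Tnmd*. *Scx*, the transcription factor of the tendon lineage, stood at 1.38 CPM in wildtype and 4.60 CPM in knockout members, and *Comp* had no UMI in either, which allows levels of up to 2.08 and 1.25 CPM. The tendon list summed to 488 and 163 CPM, against 270 and 152 CPM in the other groups pooled and 736 and 471 CPM in the Angpt4 group. *Fmod* (fibromodulin) led it in wildtype members, and 332 wildtype *Fmod* UMIs came from 7 cells. *Mkx*, a tendon transcription factor that dermal cells also transcribe, stood at 78.9 and 103 CPM.

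Tnmd-group cells made up 15.7% of gated cells in the wildtype (13.9 to 17.5) and 17.0% in the knockout (15.6 to 18.4), intervals that overlap. Their share of all kept cells was 2.86% (2.52 to 3.23) and 5.21% (4.75 to 5.70). The second pair of shares moved with the gate as a whole, since gated cells of any kind were 18.3% of wildtype and 30.7% of knockout cells. Members were shallower than the other groups, with medians of 4773 and 4700 UMIs per cell against 7569 and 6827 in the other groups pooled. When every cell was thinned to 2000 UMIs before the rule was applied, the shares of gated cells were 12.4% and 13.1%. The order between the libraries was not fixed by the data: without *C1qtnf3* in the rule the shares were 12.3% in the wildtype and 10.2% in the knockout, while a collagen gate of 5% gave 18.7% and 28.3%. The part of dissociation yield in these shares was not tested.

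The threshold of the rule ran through a continuous range of sums. The median sum of the 4 genes was 7 UMIs in wildtype and 9 UMIs in knockout members, and the highest was 71 and 43. Exactly 3 UMIs were held by 32 wildtype and 35 knockout members. Just outside, 22 and 37 gated cells had a sum of 2 UMIs that was larger than each rival sum, and a further 425 and 493 had at least 3 UMIs but tied with or fell below a rival. Most members also carried rival transcripts. A UMI of the Cpz group's genes was present in 66.1% of wildtype and 74.4% of knockout members, one of the Pla1a group's genes in 55.5% and 57.5%, and one of the Angpt4 group's genes in 21.3% and 24.3%. All 4 genes of the rule were detected together in 39 wildtype (15.4%) and 79 knockout members (17.6%), while 24 and 45 members had UMIs of a single one.

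The 4 genes did not mark the same cells equally well. To read each gene where its own count had not chosen the cells, members were chosen by the other 3 genes and the left-out gene was measured. Left out, *Tnmd* stood at 326 CPM (292 to 363) in 174 wildtype cells and at 321 CPM (296 to 347) in 350 knockout cells. Its levels in the Pla1a, Cpz and Angpt4 groups were 87.9, 104 and 161 CPM for wildtype cells and 25.9, 116 and 104 CPM in the knockout. *Masp1* stood at 265 CPM (237 to 296) and 261 CPM (239 to 283), against no more than 75.1 CPM in any of the rival groups of either library. *Slit2* stood at 353 CPM (318 to 391) and 296 CPM (272 to 322), with the Angpt4 group next at 134 and 183 CPM. Relative to the other groups pooled, the log2 ratios were 1.68 and 2.44 for *Tnmd*, 2.15 and 3.20 for *Masp1* and 2.37 and 2.03 for *Slit2*, in wildtype and knockout.

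*C1qtnf3* was different. Left out of the rule it stood at 231 CPM (202 to 262) in 200 wildtype cells, below the 302 CPM of the Angpt4 group and near the 192 CPM of the Cpz group. In 269 knockout cells it stood at 631 CPM (590 to 675), near the 546 CPM of the Cpz group and above the 328 CPM of the Angpt4 group. Relative to the other groups pooled its log2 ratio was 0.28 in the wildtype and 1.43 in the knockout. In the knockout it was 2.81 over the Pla1a group and 0.95 over the Angpt4 group, but over the Cpz group it was 0.27 in the wildtype and 0.21 in the knockout. *Tnmd*, *Masp1* and *Slit2* were highest in the chosen cells of both libraries, and *C1qtnf3* only in those of the knockout.

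**Figure D1:**
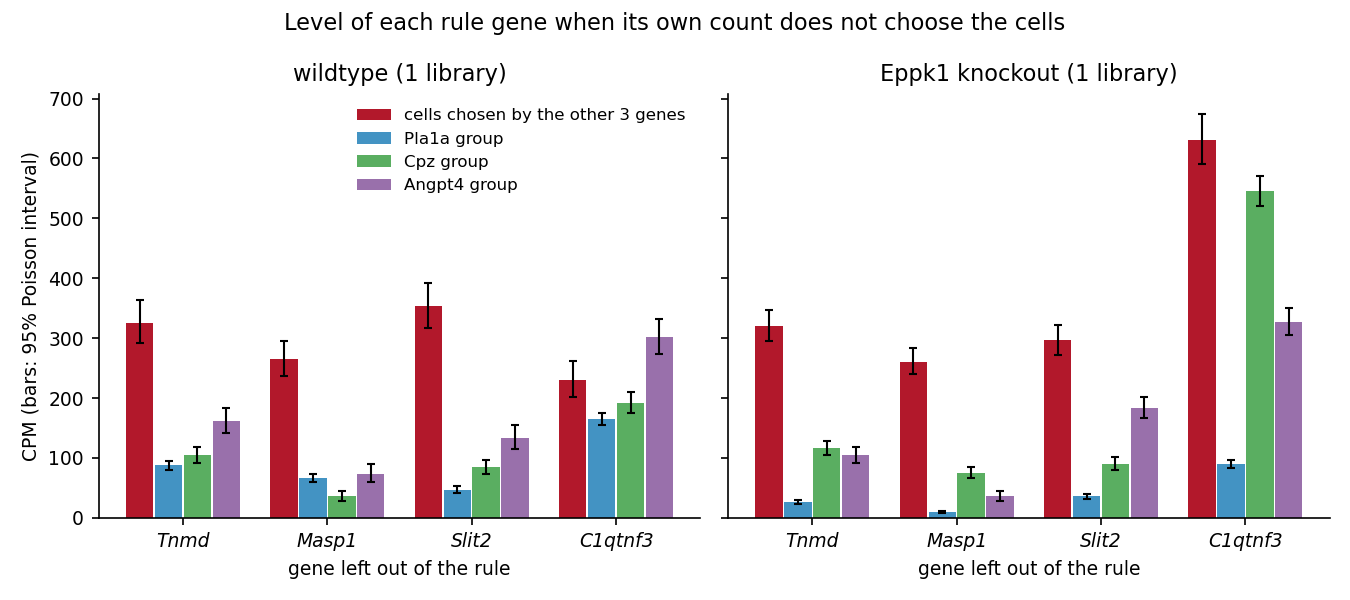
CPM of each of the 4 genes of the rule (vertical axis) when that gene is left out of the choice of cells, in the chosen cells (red) and in the Pla1a, Cpz and Angpt4 groups, for the wildtype (left) and Eppk1 knockout library (right); bars are sums over cells of 1 library and error bars 95% Poisson intervals. *Tnmd*, *Masp1* and *Slit2* are highest in the red bars of both libraries, whereas *C1qtnf3* reaches 231 CPM in the wildtype against 302 CPM in the Angpt4 group, and 631 CPM in the knockout against 546 CPM in the Cpz group.

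*C1qtnf3* also carried the main difference between the libraries among the rule's genes. With *Tnmd*, *Masp1* and *Slit2* choosing the cells, its wildtype level was 231 CPM and its knockout level 631 CPM, a log2 ratio of 1.45 (1.24 to 1.67). For the other genes, each left out in turn, the ratios of knockout over wildtype were -0.02 for *Tnmd*, -0.03 for *Masp1* and -0.25 (-0.45 to -0.06) for *Slit2*. Among all members, *C1qtnf3* supplied 27.1% of the rule's UMIs in the wildtype and 48.3% in the knockout. Accordingly, 54 of 254 wildtype members (21.3%, 16.4 to 26.8) and 180 of 449 knockout members (40.1%, 35.5 to 44.8) met the rule only through *C1qtnf3*. In the rival groups, chosen in the same way without *C1qtnf3*, it stood at 192 CPM in wildtype and 546 CPM in knockout cells of the Cpz group, at 302 and 328 CPM in the Angpt4 group and at 165 and 89.96 CPM in the Pla1a group.

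Against the other 3 fibroblast groups pooled, 67 of 4654 genes (1.44%) were at least 1 log2 unit higher in Tnmd-group cells in both libraries and 133 (2.86%) at least 1 log2 unit lower; the 16 genes of the rules and the 4 of the gate were left out, and a gene had to have a UMI in at least 25% of the cells of either side. These are descriptions with no test, as the cells were chosen by their own transcripts and both libraries were used in choosing them. Against each of the 3 groups alone, 11 genes (0.236%) were higher by that size in both libraries: *Hmcn1*, *Dkk2*, *Mmp11*, *Coch*, *F2r*, *Scel*, *Egflam*, *Enpp2*, *Rtn4r*, *Mylk* and *Nrep*. Another 6 (0.129%) were lower: *Pi15*, *Procr*, *Usp18*, *Ces2g*, *Akr1c18* and *Pkdcc*.

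Of the 11 higher genes, 4 encode matrix proteins or a matrix protease, a grouping with no list or share behind it. *Coch*, which encodes the secreted matrix protein cochlin, stood at 467 CPM in wildtype and 224 CPM in knockout members, against at most 57.6 CPM in the 3 rival groups of either library, to which all such limits refer below. It was unevenly spread: 68 of 254 wildtype members had a UMI, and 1 cell with 291 UMIs held 43.1% of them. Without the highest cell of each library *Coch* stood at 267 and 208 CPM, still above each rival group. *Egflam*, encoding the laminin-related matrix protein pikachurin, stood at 90.6 and 66.0 CPM against at most 15.8 CPM in the rival groups. *Hmcn1*, encoding hemicentin-1, a matrix protein of cell anchorage, stood at 111 and 97.8 CPM against at most 35.5 CPM. *Mmp11*, encoding a matrix metalloproteinase, stood at 102 and 230 CPM against at most 51.4 CPM, and after thinning its wildtype log2 ratio over the pooled groups was 0.67 in place of 1.44. Over all 8122 genes with at least 50 UMIs in members, 203 (2.50%) were at least 1 log2 unit higher than in the pooled groups in both libraries and 117 (1.44%) lower. That filter counts UMIs of members only, so genes low in members drop out more readily than genes high in them. All list counts against the pooled groups rest on it and are descriptions only. Of 17 elastic fibre genes of that depth 2 were higher, *Mfap4* (1327 and 1412 CPM against 323 and 319 CPM pooled) and *Ltbp2* (137 and 91.1 CPM against 20.3 and 23.7 CPM), and 1 was lower, *Emilin2* (176 and 165 CPM against 407 and 564 CPM).

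The other 7 genes were of mixed function. *Dkk2*, encoding a Dickkopf modulator of Wnt signalling, stood at 235 CPM in wildtype and 127 CPM in knockout members, with 47.3 CPM as the highest level in the rival groups. *Enpp2*, encoding autotaxin, the enzyme that makes lysophosphatidic acid, stood at 205 and 170 CPM against at most 43.1 CPM. *F2r*, the thrombin receptor PAR1, stood at 130 and 119 CPM against at most 43.0 CPM, but at 104 and 130 CPM in keratin-rich cells. *Rtn4r*, the Nogo receptor, stood at 74.7 and 111 CPM against at most 31.4 CPM. *Mylk*, myosin light chain kinase, stood at 45.7 and 118 CPM, and in the knockout the Angpt4 group reached 47.7 CPM. *Scel*, encoding sciellin of the cornified envelope, stood at 115 and 73.5 CPM but at 393 CPM in wildtype keratin-rich cells, and the part of keratinocyte RNA in *F2r* and *Scel* was not tested. *Nrep* stood at 89.9 and 130 CPM against at most 57.2 CPM, and with a 5% collagen gate its knockout log2 ratio over the pooled groups was 0.93 in place of 1.70. Apart from *Coch*, no single cell held more than 10.0% of a library's UMIs of the 11 genes.

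The 11 genes were chosen against the rival groups, and several of them were also abundant in the gated cells that met no rule (238 wildtype and 237 knockout cells). Those cells held more *Nrep* than members, with 131 CPM (wildtype) and 194 CPM (knockout). Their *Mmp11* stood at 91.1 and 227 CPM, close to the levels in members, and their *F2r* at 80.0 and 152 CPM, higher than in members of the knockout. *Enpp2* stood at 142 and 153 CPM in them, *Mylk* at 33.1 and 108 CPM, *Dkk2* at 109 and 101 CPM, and *Egflam* at 48.3 and 54.6 CPM. *Coch* stood at 45.5 and 88.4 CPM in them, and *Hmcn1*, *Rtn4r* and *Scel* each at between 46.5 and 55.8 CPM. Of the 11 genes, all but *Nrep* and *F2r* were lower there than in members of both libraries, and *F2r* was lower only in the wildtype.

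**Figure D2:**
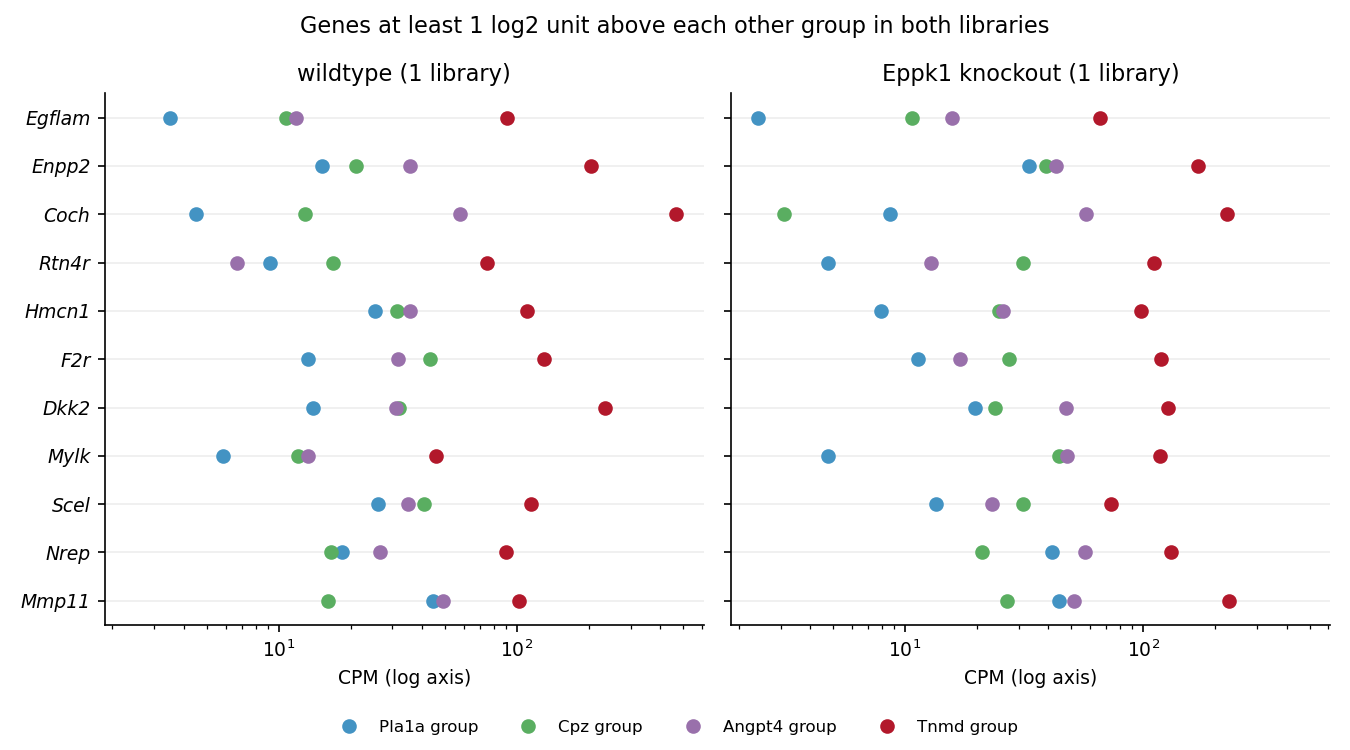
Level in CPM (horizontal log axis) of the 11 genes that were at least 1 log2 unit higher in Tnmd-group cells (red) than in each of the Pla1a, Cpz and Angpt4 groups, in the wildtype (left) and the Eppk1 knockout library (right); each point is the sum over the cells of 1 library. Red points lie to the right in every row of both panels, by at least 1.06 log2 units over the nearest rival group in the wildtype (*Mmp11*) and 1.18 in the knockout (*Nrep*).

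Wnt genes were also read from a list for that pathway. Of 19 Wnt genes with at least 50 UMIs in members, 5 were at least 1 log2 unit higher than in the other groups pooled in both libraries, namely *Dkk2*, *Dkk3*, *Wnt5b*, *Nkd1* and *Nkd2*, and 1 lower, *Sfrp4*. *Dkk3*, a secreted Dickkopf relative, stood at 186 and 271 CPM against 57.4 and 78.1 CPM, and *Wnt5b*, a Wnt ligand, at 54.0 and 50.5 CPM against 13.7 and 13.2 CPM. *Sfrp4*, a secreted Frizzled-related protein, stood at 101 and 48.9 CPM against 720 and 891 CPM. Of the Robo receptors for Slit ligands, *Robo2* stood at 78.9 and 83.1 CPM against 26.7 and 13.4 CPM, and it was the single gene of the Slit and Robo list to pass the size in both libraries. *Robo1* stood at 114 and 61.8 CPM against 52.0 and 44.4 CPM, log2 ratios of 1.14 and 0.48.

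The genes lower than in each rival group were of mixed function. *Akr1c18*, encoding a progesterone-inactivating steroid dehydrogenase, had 1 UMI in wildtype members and stood at 4.60 CPM in knockout members, whereas it reached 373 and 731 CPM in the Pla1a group and 19.8 and 30.4 CPM in the Cpz group. *Procr*, the endothelial protein C receptor, stood at 13.1 and 6.68 CPM against at least 42.8 CPM in the rival groups, and at 22.1 and 43.0 CPM in gated cells that met no rule. *Pi15*, encoding a peptidase inhibitor, stood at 20.8 and 13.8 CPM against at least 82.0 CPM in the rival groups. *Usp18*, which removes the ubiquitin-like protein ISG15, *Ces2g*, a carboxylesterase, and *Pkdcc*, a secreted protein kinase, lay between 9.68 and 26.3 CPM in members. Against the pooled groups the chemokine list had 6 of 19 genes at least 1 log2 unit lower in both libraries and 1 higher. The whole list summed to 5206 and 5604 CPM in members, above the 4514 and 4930 CPM of the Cpz group. It summed to 6329 and 6528 CPM in the Angpt4 group and to 9905 and 8432 CPM in the Pla1a group. *Cxcl1*, which draws neutrophils, stood at 161 and 176 CPM against 1459 and 1173 CPM in the pooled groups. *Cxcl13*, which draws B cells, stood at 11.1 and 34.3 CPM against 271 and 556 CPM pooled. The gene higher was *Ackr4*, a scavenger receptor for chemokines, at 135 and 48.5 CPM against 43.2 and 15.2 CPM. Its log2 ratios were 2.91 and 2.76 over the Pla1a group and 2.41 and 1.16 over the Angpt4 group. Over the Cpz group they were only 0.22 and 0.50. Complement *C3* was also lower than in the pooled groups, at 1199 and 1293 CPM against 2602 and 6182 CPM.

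Within the Tnmd group, cells that met the rule without *C1qtnf3* and cells that met it only through *C1qtnf3* differed in genes the rule had not used. *Coch* stood at 652 CPM in the former and 18.9 CPM in the latter in the wildtype, and at 366 and 30.6 CPM in the knockout. *Enpp2* stood at 282 and 21.3 CPM in the wildtype and at 271 and 32.6 CPM in the knockout. *Egflam* stood at 121 and 16.6 CPM, and at 105 and 12.8 CPM. *F2r* stood at 171 and 30.7 CPM, and at 196 and 13.8 CPM. *Dkk2* stood at 311 and 52.0 CPM, and at 206 and 19.8 CPM. For these 5 genes the 2 subsets were separated by at least 2.43 log2 units in both libraries. *Mylk* was split in the wildtype (57.7 and 16.6 CPM) but not in the knockout (125 and 109 CPM), and *Hmcn1* and *Scel* differed by less than 1 log2 unit in both.

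Detection in single cells followed the same line for *Egflam*, but not for all of the genes higher than in each rival group. A UMI of *Egflam* was found in 42.1% of wildtype members with *Slit2* and in 4.44% of those without, and in 29.0% and 12.7% in the knockout. Among members with *C1qtnf3* the shares were 20.0% and 14.8%, and among those without it 48.2% and 48.7%, in wildtype and knockout. *Coch*, *Enpp2*, *F2r*, *Dkk2*, *Mylk* and *Nrep* were also found less often in members with *C1qtnf3* in both libraries. *Hmcn1*, *Scel*, *Mmp11* and *Rtn4r* were found more often there. For *Hmcn1* the shares with and without *C1qtnf3* were 46.1% and 33.8% in the wildtype and 37.0% and 25.2% in the knockout. These shares are descriptions, as a sum of at least 3 UMIs makes one gene of the rule more frequent where another is missing. *Tnmd* was present in 70.4% of wildtype members with *C1qtnf3* and 71.2% of those without, and in 59.4% and 70.6% in the knockout. Of the 12 rival genes, on whose sums the rule bears, 8 were higher in both libraries in the cells that met it only through *C1qtnf3*, among them *Anxa3* (740 and 429 CPM against 264 and 152 CPM) and *Cpz* (220 and 542 CPM against 106 and 199 CPM). *Fgfr4* was lower in both (14.2 and 10.9 CPM against 20.5 and 14.5 CPM), and *Clec11a* was lower in the wildtype (130 against 187 CPM) and higher in the knockout (220 against 161 CPM), as were *Pla2g5* and *Efhd1* at less than 24 CPM. The choice of the split was made after its values were seen.

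**Figure D3:**
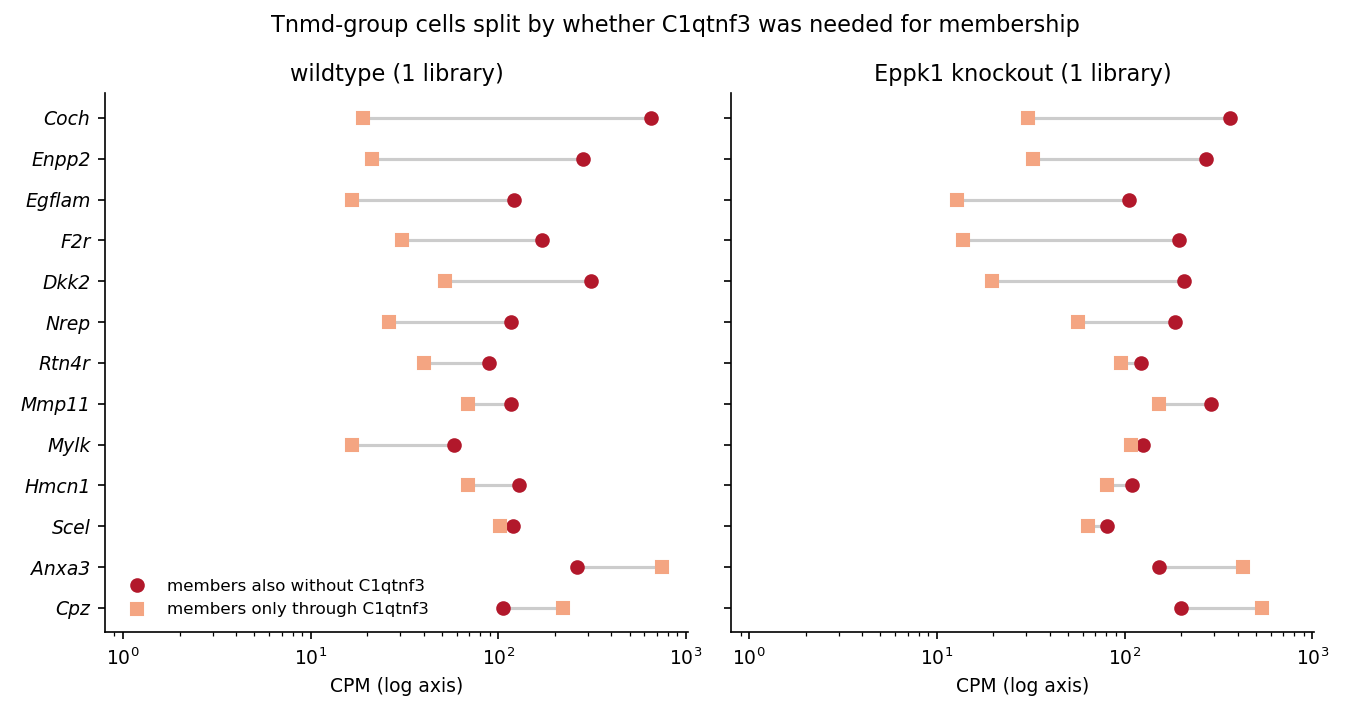
Level in CPM (horizontal log axis) of the 11 genes above each other group and of the rival genes *Anxa3* and *Cpz* in Tnmd-group cells that met the rule without *C1qtnf3* (circles; 200 wildtype and 269 knockout cells) and in those that met it only through *C1qtnf3* (squares; 54 and 180 cells). *Coch*, *Enpp2*, *Egflam*, *F2r* and *Dkk2* lie far to the right in the circles of both libraries, *Anxa3* and *Cpz* to the right in the squares.

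Between genotypes, 127 of 3347 genes detected in at least 25% of members of either library (3.79%) were at least 0.5 higher on the log2 scale in the knockout and 143 (4.27%) at least 0.5 lower. In the other fibroblast groups pooled, 135 (4.03%) and 173 (5.17%) of the same genes passed. Both sides shared 20 higher and 48 lower genes, and 5 genes passed in opposite directions. The split depended on scaling: with TMM factors 175 genes were higher and 109 lower, and with median-of-ratios factors 177 and 107, as these moved the log2 ratios up by 0.05 and 0.06. The median log2 ratio of the detected genes was -0.0043.

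The 12 highest ratios included those of lysosomal, matrix and endoplasmic reticulum proteins, named here with no list or share behind the grouping. *Ctsk*, encoding the collagen-degrading lysosomal protease cathepsin K, stood at 1658 CPM in wildtype and 3460 CPM in knockout members, a log2 ratio of 1.06 (1.002 to 1.13), and the ratio in the other groups was 0.26. It was also broadly spread, with a UMI in 237 of 254 wildtype and 443 of 449 knockout members. *Hexa*, a lysosomal hexosaminidase subunit, stood at 248 and 519 CPM (1.06, others 0.28). *Mmp11* stood at 102 and 230 CPM (1.17, others 0.15), and *Cpxm1*, a carboxypeptidase-like protein, at 207 and 546 CPM (1.40, others 0.93). *Manf* and *Creld2*, which encode proteins of the endoplasmic reticulum stress response, stood at 200 and 420 CPM and at 35.3 and 83.6 CPM (1.07 and 1.23, others 0.46 and 0.92). *Igfbp5*, a binding protein for insulin-like growth factors, stood at 1220 and 2772 CPM (1.18), and in the other groups at 2171 and 6641 CPM (1.61).

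The remaining high ratios were those of *Ace*, angiotensin-converting enzyme (1.44, others 1.35), *Mylk* (1.36, others 1.28), *Podxl2* (1.35, others 1.13), *Akap12*, a scaffold of protein kinase A (1.09, others 0.85), and *Marcksl1* (1.16, others -0.04). The pooled ratios covered groups that differed: *Mylk* had ratios of -0.30 in the Pla1a group, 1.87 in the Cpz group and 1.81 in the Angpt4 group, and *Ace* of 1.28, 4.76 and 1.12. *Ctsk* and *Hexa* had ratios of 1.01 and 0.88 in the Cpz group, and *Marcksl1* of 0.78 in the Angpt4 group. *Mmp11* stood at 91.1 CPM in wildtype and 227 CPM in knockout gated cells that met no rule. In cells that met the rule without *C1qtnf3* the ratios of all 12 genes lay between 0.98 and 1.30.

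Among the 12 lowest ratios, 4 were those of epidermal genes. *Sprr1a*, a small proline-rich protein of the cornified envelope, stood at 1160 CPM in wildtype and 125 CPM in knockout members, lower by 3.22 on the log2 scale (-3.40 to -3.04). *Krt77*, an epidermal keratin, stood at 471 and 184 CPM (-1.36), *Sbsn*, suprabasin, at 282 and 119 CPM (-1.24), and *Krtdap*, the keratinocyte differentiation-associated protein, at 222 and 96.9 CPM (-1.20). All 4 were far more abundant in keratin-rich cells, with wildtype levels of 8112, 14530, 5801 and 4519 CPM, and few members supplied most of them. The highest 26 of 254 wildtype members held 96.7% of *Sprr1a* UMIs, and 1 wildtype cell held 58.7% of *Krt77* UMIs. Without the highest cell of each library the log2 ratio was -0.45 for *Krt77* and -3.55 for *Sprr1a*. Without members in which any list of other-type markers passed 1% of UMIs (21 wildtype and 23 knockout cells), the log2 ratios were -0.44 for *Krt77*, -0.48 for *Sbsn*, -0.51 for *Krtdap* and -2.54 for *Sprr1a*. With a collagen gate of 5% they were 0.73 for *Krt77*, -0.13 for *Sbsn* and -0.017 for *Krtdap*, and after thinning 0.012, -0.24 and -0.10, with -1.18 for *Sprr1a*.

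Other low ratios belonged to genes that keratin-rich cells held at less than 100 CPM. *Fibin*, encoding a secreted protein, stood at 173 CPM in wildtype and 54.7 CPM in knockout members (-1.66, -1.98 to -1.35), with -1.19 in the other groups. *Ackr4* stood at 135 and 48.5 CPM (-1.47, others -1.50). *Akr1c14*, a steroid dehydrogenase, stood at 459 and 179 CPM (-1.36, others -0.55). *Ikbkg*, the NEMO subunit of the kinase that activates NF-kappaB, stood at 92.0 and 39.3 CPM (-1.23, others -1.03), *Galnt15*, a glycosyltransferase, at 142 and 63.1 CPM (-1.17, others -0.89) and *Fam214a* at 129 and 62.3 CPM (-1.05, others -0.76). *Coch* had a ratio of -1.06 in members against 0.20 in the other groups, and of -1.71 in members with a collagen gate of 5%. It was -0.83 in cells that met the rule without *C1qtnf3*, and -0.36 without the highest cell of each library. Of the 24 genes with the highest or lowest ratios, 22 kept a size of at least 0.5 without those cells, the exceptions being *Coch* and *Krt77*.

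**Figure D4:**
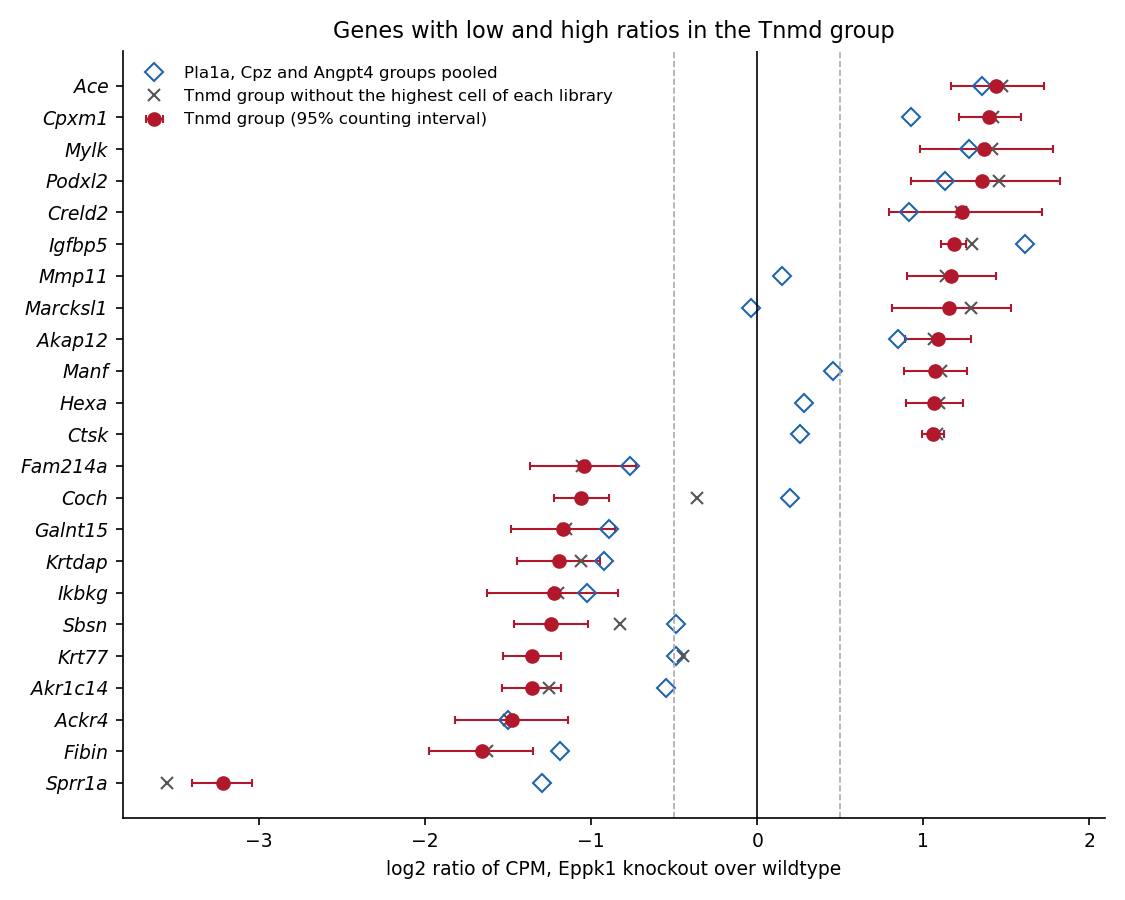
Log2 ratio of CPM, Eppk1 knockout over wildtype (horizontal axis), of the 12 genes with the highest and 11 of the 12 with the lowest ratios in Tnmd-group cells (red circles with 95% counting intervals), beside the ratio in the Pla1a, Cpz and Angpt4 groups pooled (blue diamonds) and in Tnmd-group cells without the highest cell of each library (crosses). *Ctsk*, *Hexa*, *Mmp11* and *Marcksl1* are past 1 in the Tnmd group with diamonds at 0.28 or less, and *Coch* moves from -1.06 to -0.36 without those cells.

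Gene lists were read against all 8122 genes with at least 50 UMIs in members, of which 466 (5.74%) were at least 0.5 higher in the knockout and 848 (10.4%) at least 0.5 lower, with a median of -0.04. Of 17 matrix proteases and inhibitors, 6 passed upward and 1 downward, with a median of 0.39 (0.11 in the other groups). The 6 were *Mmp3*, *Mmp11*, *Mmp14*, *Adam12*, *Adamts4* and *Adamts12*, and *Timp1*, an inhibitor of metalloproteinases, stood at 45.0 and 29.2 CPM. *Mmp14*, a membrane-bound collagenase, was the most abundant of the 6 at 1175 and 1761 CPM. None of 18 collagen processing and crosslinking genes passed in either direction, with a median of -0.00026, and of 18 other collagens 2 passed upward and 3 downward (median -0.11). Of 17 elastic fibre genes 2 passed in each direction, with *Fbn1*, fibrillin-1, at 1709 and 1153 CPM and *Mfap2* at 329 and 484 CPM. Of 8 small leucine-rich proteoglycans *Lum* (2458 and 3508 CPM) passed upward and *Fmod* downward. No proteoglycan passed upward, and 2 passed downward, without *C1qtnf3* in the rule or without members above 1% other-type markers. The *Lum* ratio was 0.28 in cells that met the rule without *C1qtnf3* and 0.78 in those that needed it. With a rule sum at least 2 times each rival sum, no other collagen, elastic fibre gene or proteoglycan passed upward. There 2, 3 and 2 of them passed downward.

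Of the lists for the group's own marker genes, 8 genes of the Slit and Robo list were measured, 2 of which passed upward (*Srgap1* and *Srgap3*, which act downstream of Robo receptors) and 1 downward (*Robo1*, -0.88). Of 14 complement genes 2 passed upward, among them *C5ar1* (5.53 and 23.0 CPM), and none downward (median 0.13). Of 9 C1q and TNF related genes *C1qb* passed upward and *C1qtnf7* downward. The macrophage marker list, which holds *C1qb*, moved with these calls: it summed to 333 CPM in wildtype and 462 CPM in knockout members, where 4 of its 7 measured genes passed upward and 1 downward, and to 284 and 196 CPM in the other groups, where 4 passed downward. Its part in the upward calls of *C5ar1*, *C1qb* and the chemokines below was not tested. Of 21 other guidance genes *Sema3b* passed upward and *Nrp1* and *Plxna4* downward. Of 19 Wnt genes *Wnt11*, *Axin2* and *Dkk3* passed upward, and *Sfrp2*, *Sfrp4*, *Dkk2* and *Wnt5a* downward. *Sfrp2* stood at 491 and 12.5 CPM, but 9 wildtype members had a UMI and 1 of them held 82.8% of the UMIs. Of 25 TGF-beta and BMP genes *Tgfb2* passed upward (192 and 378 CPM) and 4 downward. Of 23 growth factor genes 5 passed upward, among them *Igfbp5* and *Mdk* (20.8 and 71.0 CPM), and 6 downward, among them *Igfbp6* (1974 and 1253 CPM) and *Igfbp2* (163 and 16.3 CPM, 10 wildtype and 18 knockout members with a UMI). Of 19 chemokine genes *Cxcl2*, *Cxcl13*, *Ccl2* and *Ccl8* passed upward and *Ackr4* downward, and 1 knockout cell held 79.3% of *Cxcl13* UMIs. Several of these counts turned with the settings. After thinning, 1 of 14 chemokine genes passed upward and 6 downward (median -0.43), and with a rule sum at least 2 times each rival sum (the doubled sum) 4 passed in each direction. With TMM or median-of-ratios scaling 2 TGF-beta and BMP genes passed upward and 1 downward. In the Slit and Robo list 1 gene passed upward and 2 downward with a rule sum of at least 5 or a collagen gate of 5%. The list had the same counts among 7 measured genes without members above 1% other-type markers (median -0.30). No complement gene passed without shared droplets or without *C1qtnf3* in the rule, 4 C1q and TNF related genes passed downward and none upward with the doubled sum, and 3 Wnt genes passed upward and 2 downward without *C1qtnf3* in the rule.

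In the cholesterol synthesis and glucocorticoid-response lists genes passed only downward, but for cholesterol synthesis this depended on the choice of cells. Of 16 cholesterol genes 9 passed downward and none upward, with a median of -0.76, and in the other groups 12 passed downward with a median of -0.69. *Sqle*, the squalene epoxidase, stood at 66.4 and 38.4 CPM and *Cyp51* at 51.9 and 28.4 CPM. Keratin-rich cells held 4880 and 3857 CPM of these genes against 1112 and 848 CPM in members, and without members above 1% other-type markers 11 genes were measured, of which 3 passed downward with a median of -0.31. With a collagen gate of 5%, 1 of 12 passed in each direction (median -0.29), and after thinning none of the 4 measured passed (median -0.08). Of 20 glucocorticoid-response genes 8 passed downward and none upward (median -0.24, others -0.27), including *Tsc22d3* at 620 and 340 CPM and *Glul* at 317 and 167 CPM. After thinning, 4 of 16 passed downward and none upward (median -0.13). Of 14 circadian clock genes 4 passed downward and 1 upward (median -0.18), and in the other groups 7 passed downward and 1 upward (median -0.42). *Nr1d1* stood at 367 and 197 CPM in members. The hour of tissue collection, which is not given in the sources used here, cannot be told apart from genotype. Of 20 early genes of dissociation, such as *Fos* and *Jun*, none passed upward and 1 downward (*Egr2*). Of 7 plakins *Eppk1*, *Dsp* and *Evpl* passed downward (none of the 5 measured after thinning), and *Dsp*, desmoplakin, is also a keratinocyte marker. Near *Eppk1*, within 10 Mb, 54 genes were detected, 1 of which passed upward and 4 downward, beside 3.79% and 4.27% of all 3347 detected genes, and the part of flanking DNA carried along with the knockout allele was not tested.

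RNA of other cell types was present in members. The keratinocyte list summed to 3818 CPM in wildtype and 2300 CPM in knockout members, against 1797 and 1377 CPM in the other groups and 52833 and 53106 CPM in keratin-rich cells, and its most abundant gene was *Krt10* at 769 and 523 CPM. All 10 keratinocyte genes were lower in knockout members, 8 of them by at least 0.5 (median -0.69). With the doubled sum 4 passed downward (median -0.30), and without *C1qtnf3* in the rule 4 did (median -0.41). Without members above 1% other-type markers 5 of 8 measured genes passed downward (median -1.23), and after thinning 6 of 8 did (median -0.79). With a collagen gate of 5%, 2 passed upward and 6 downward. The part of keratinocyte RNA in the genotype ratios was not tested beyond the values without members above 1% other-type markers given above. The mast cell list stood at 131 and 115 CPM against 11.5 and 4.86 CPM in the other groups, but for *Mcpt4*, *Cpa3*, *Cma1* and *Tpsb2* 1 cell of each library held at least 90.0% of the UMIs. Of the macrophage list described above, *C1qb* stood at 52.6 and 90.7 CPM and *Lyz2* at 74.0 and 79.0 CPM. Pericyte and endothelial lists stood at 49.8 and 86.5 CPM and at 113 and 91.5 CPM, with no UMI of *Rgs5* or *Higd1b* in either library (up to 2.08 and 1.25 CPM). The melanocyte list stood at 6.92 and 49.7 CPM, led by *Mlana*, which had a UMI in 5 wildtype and 51 knockout members. The dermal papilla list stood at 38.7 and 44.7 CPM, and *Corin* was found in 3 and 13 members.

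**Figure D5:**
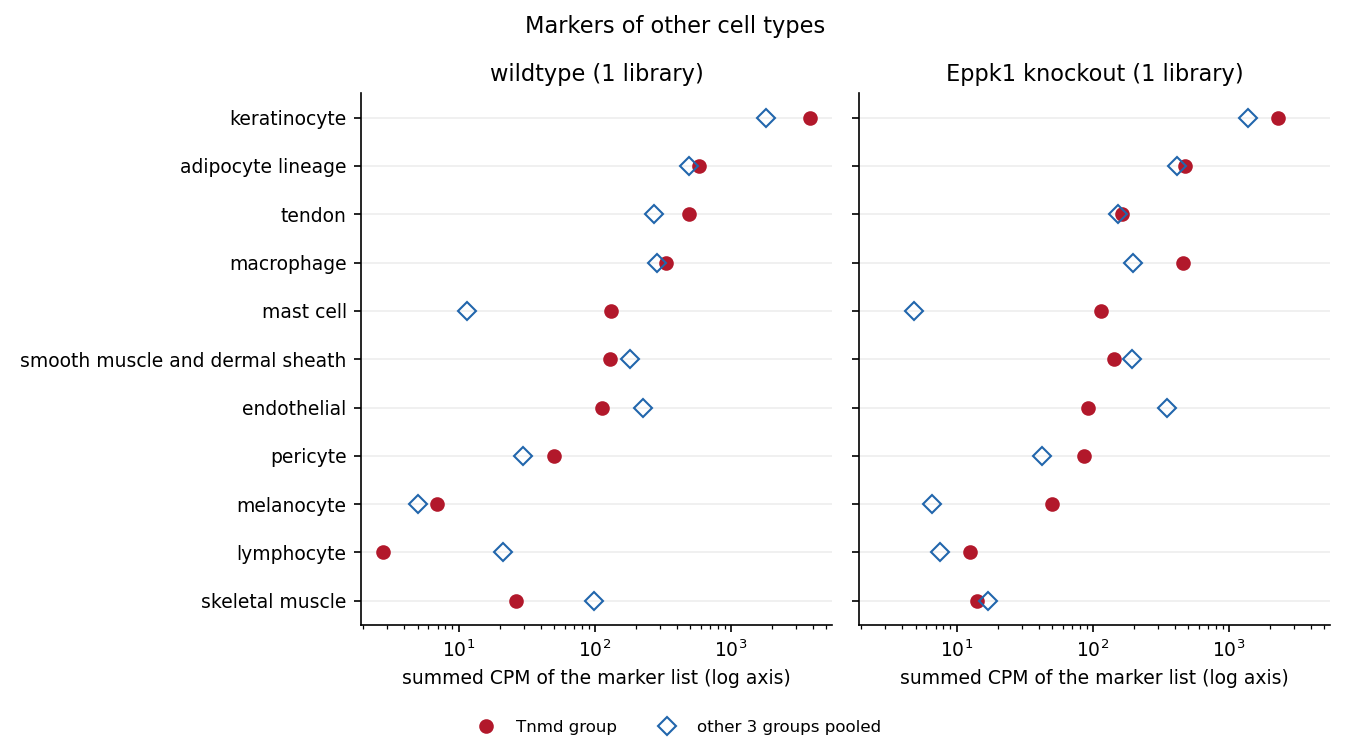
Summed CPM of 11 marker lists of other cell types (horizontal log axis) in Tnmd-group cells (circles) and in the Pla1a, Cpz and Angpt4 groups pooled (diamonds), for the wildtype (left) and Eppk1 knockout library (right). The keratinocyte list is the largest, at 3818 and 2300 CPM in members, and the mast cell list is farthest from the other groups, at 131 and 115 CPM against 11.5 and 4.86 CPM.

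The cells of both animals shared droplets, and the same droplet barcode occurred in both libraries 1211 times. It did so for 31 wildtype members (12.2%) and 51 knockout members (11.4%). Without them, 129 genes were at least 0.5 higher and 166 at least 0.5 lower, of which 100 and 131 were among the 127 and 143 above, and the ratio was 1.02 for *Ctsk* and -0.34 for *Krt77*. No doublet caller was run, and without members above 1% other-type markers 133 genes were higher and 162 lower, of which 102 and 120 were among those above.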

How the data were processed

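Per the file headers and the labels, the authors aligned and counted probe-based (10x Flex) libraries with Cell Ranger 8.0.1 on mm10. The deposited files hold raw UMI counts of 19059 genes, not normalized and without the study's cell filters. Depth was 77638793 UMIs in 9179 wildtype cells and 65118304 UMIs in 8811 knockout cells. Kept cells had 200 to 45000 UMIs, between 100 and 7500 genes and a mitochondrial share of 10% or less. The 13 mitochondrial genes were then left out.

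The members, lists and named genes were chosen with earlier results of these data known. UMIs were summed over the cells of a group in each library and given as CPM with exact Poisson intervals. Log2 ratios used 0.5 added UMIs and exact conditional intervals, and shares exact (Clopper-Pearson) binomial intervals. Intervals cover counting error only. With 1 library per genotype there was no test, and sizes of 0.5 (genotypes) and 1 (groups) were used instead, for genes seen in 25% of cells or more. Lists used genes with at least 50 UMIs over both libraries in members, a filter that favours genes high in members. Named were *Eppk1*, the rule and gate genes, and up to 15 genes higher and 10 lower than each rival group (11 and 6 passed). Also named were the 12 highest and 12 lowest genotype ratios and, in each list, the most abundant and up to 4 genes with the largest ratios. Others named were chosen after their values were seen. Of the rule for lists, cartilage and reticular dermis are given in the closing section. A few genes, and 1 marker list that rests on one of them, are not reported here. The ratio script was checked on simulated counts. Alternatives covered the rule, gate, filters, mixed cells, thinning to 2000 UMIs, edgeR 4.0.16 TMM and median-of-ratios scaling. The scripts ran under R 4.3.3 and Python 3.11.15 (scipy 1.17.1, pandas 2.3.3, numpy 2.4.6). Gene positions are from GENCODE on mm10.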

Additional observations from a re-analysis of the deposited data

Results flagged for a closer look

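In 5 genes the genotype ratio passed 0.5 in one direction in Tnmd-group cells and in the opposite direction in the Pla1a, Cpz and Angpt4 groups pooled; with 1 library per genotype the difference was not tested. *Gdf15*, a stress-induced cytokine of the TGF-beta family, stood at 161 CPM in wildtype and 303 CPM in knockout members, a log2 ratio of 0.91, against -0.58 in the other groups. *Pid1* stood at 118 and 79.4 CPM, a ratio of -0.58 against 1.05. *Lama2*, the laminin alpha2 chain, stood at 425 and 289 CPM, a ratio of -0.56 against 0.55. *Rasl11b* stood at 102 and 67.3 CPM, a ratio of -0.61 against 0.54. *Abca8a*, a lipid transporter, stood at 136 and 93.2 CPM, a ratio of -0.54 against 0.90.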

How the results depend on the processing

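The shares of Tnmd-group cells, in wildtype and knockout, were 11.95% and 14.4% of gated cells (2.19% and 4.43% of kept cells) with a sum of at least 5 UMIs, 10.8% and 11.6% (1.98% and 3.57%) with a sum at least 2 times each rival sum, 18.7% and 28.3% (2.11% and 4.04%) with a 5% collagen gate, 12.4% and 13.1% (2.33% and 4.29%) after thinning, and 12.3% and 10.2% (2.25% and 3.12%) without *C1qtnf3* in the rule, an alternative added after the data were seen. The knockout share of gated cells was the lower one only in the last of these. After thinning, 83 of 1175 genes tested were higher and 85 lower between genotypes, of which 37 and 37 were among the 127 and 143 given above, and 22 were higher and 64 lower than the other groups. Detection in 10% of cells gave 334 and 625, and 140 and 242; without a detection rule there were 466 and 848 between genotypes, and 203 higher than the other groups. Against those groups, 113 genes were higher with the doubled sum, and 29 higher and 17 lower with the 5% gate. *Krt77* turned to 0.73 with the 5% gate and 0.012 after thinning and did not pass without shared droplets (-0.34) or without members above 1% other-type markers (-0.44), and *Sbsn* (-0.13 and -0.24) and *Krtdap* (-0.017 and -0.10) no longer passed with either. Of 288 values of the named genotype genes 242 stayed within their interval, and of 264 of the named group genes 194 did. Of 456 list counts 358 stayed within 1.5 times. The causes were not tested. No paired analysis was possible because each genotype has 1 library, which also leaves no replicate to leave out.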

Other observations

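The upper (papillary) dermis list summed to 1370 CPM in wildtype and 1204 CPM in knockout Tnmd-group cells, against 854 and 743 CPM in the other groups pooled, and 1457 and 1266 CPM in the Cpz group alone. *Ntn1*, a secreted guidance cue, led it at 619 and 544 CPM, followed by *Apcdd1*, a Wnt inhibitor, at 487 and 376 CPM. The lower (reticular) dermis list summed to 12460 and 9600 CPM against 19738 and 11551 CPM, led by *Gpx3*, an extracellular glutathione peroxidase, at 8664 and 6139 CPM. It summed to 5405 and 4581 CPM in the Cpz group, 21470 and 10165 CPM in the Pla1a group and 37648 and 24908 CPM in the Angpt4 group. The fascia and vessel-wall list summed to 6165 and 5567 CPM against 7461 and 10840 CPM in the groups pooled, led by *Pi16* at 4092 and 3312 CPM. Its sums were 3935 and 3874 CPM in the Cpz group, 9033 and 14423 CPM in the Pla1a group and 6777 and 6319 CPM in the Angpt4 group. *Dpp4* stood at 154 and 205 CPM against 398 and 690 CPM in the groups pooled.

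The adipocyte list summed to 585 and 473 CPM against 489 and 412 CPM, led by *Lpl* at 352 and 364 CPM. *Cfd*, adipsin, had 77 UMIs in 30 wildtype members and 1 UMI in knockout members. The smooth muscle and dermal sheath list summed to 129 and 143 CPM, led by *Myl9*, with *Itga8* at 36.7 and 25.1 CPM against 4.50 and 7.29 CPM. The cartilage list summed to 68.5 and 34.3 CPM, nearly all from *Sox9*. The lymphocyte and skeletal muscle lists summed to 2.77 and 12.5 CPM and to 26.3 and 14.2 CPM.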
